A study of Danio rerio with 30 samples.

Results

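Whole zebrafish larvae exposed to ethylparaben at the label BMD5 (EtP) were compared with Control larvae by RNA-seq, with 3 libraries a group. The libraries were taken by their titles and are 6 of the 30 in the series. Both groups were larvae of the AB wild-type laboratory strain, sampled as whole bodies at 120 hours post fertilization (hpf). The other groups of the series hold methylparaben (MtP) and propylparaben (PrP) at BMD5, and all 3 compounds at labels that divide BMD5 by 10 and by 50. The concentration behind BMD5, the hours of exposure, the solvent given to Control and the number of larvae per library were not given in the sources used here. Nothing in the labels says that libraries 1, 2 and 3 of a group came from separate clutches, so p-values measure only how far these samples spread, and that spread may be technical. The title of the series asks how these compounds differ in their effect on the developing nervous system.

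Ethylparaben is the ethyl ester of 4-hydroxybenzoic acid, a preservative of cosmetics and pharmaceuticals that carboxylesterases cleave in mammals, and a weak ligand of estrogen receptors in cell assays. The larval liver secretes most plasma proteins into the blood: carriers of lipids, hormones, iron and vitamins, the apolipoproteins of lipoprotein particles, complement proteins and the factors and inhibitors of clotting. The exocrine pancreas next to it makes the digestive enzymes, and the intestine takes up what they release. In RNA from whole larvae, fewer cells of a type and less RNA per cell cannot be told apart.

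The EtP libraries 1, 2 and 3 held 9711814, 16044756 and 12598627 counted reads and the Control libraries 12735989, 13335764 and 14621890. EtP library 1, the shallowest of the 6, stood apart from the other EtP libraries, and whether its depth has a part in this was not tested. Its Spearman correlation over genes was 0.981 with Control library 1, 0.9798 with Control library 2 and 0.972 with Control library 3, but 0.956 with EtP library 2 and 0.953 with EtP library 3. EtP libraries 2 and 3 correlated at 0.987 with each other. On the first principal component of the 6 libraries, which held 49.1% of the variance, EtP libraries 1, 2 and 3 lay at -55.9, 42.2 and 48.1, against -32.2, -12.0 and 9.91 for Control libraries 1, 2 and 3. The library numbered 1 was the lowest of its group on the first component of all 30 libraries in 10 of 10 groups, at -76.1 to -23.8, against -4.14 to 54.8 for libraries numbered 2 and 3. Results are therefore given by library number, and with a separate mean for the libraries numbered 1, which leaves EtP against Control to numbers 2 and 3. The libraries numbered 1 were known from these same data to stand apart when this fit was chosen. Adjusted p-values given for numbers 2 and 3 hold only under that choice.

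Over all 6 libraries no gene separated EtP from Control past the threshold. In edgeR's quasi-likelihood test with Benjamini-Hochberg adjustment, 0 of 18543 genes (0%) had an adjusted p under 0.05, with a smallest adjusted p of 0.9999, and DESeq2 also called 0. An unadjusted p under 0.05 was found for 380 genes (2.05%), 247 higher with EtP (1.33%) and 133 lower (0.717%), where 927 would be expected by chance. Libraries of the groups did not overlap for 588 genes with EtP above Control (3.17%) and 620 with EtP below it (3.34%). The median log2 fold change of all genes was 0.01, and 9755 genes (52.6%) lay above 0. The 95% interval of a gene reached a median of 0.53 to either side on the log2 scale, and for 66.2% of the genes it lay within 1 log2 unit of 0, while for the others it reached past a 2-fold difference.

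With numbers 2 and 3 alone, liver genes were mostly higher with EtP. In the fit with a separate mean for the libraries numbered 1, 63 of 18543 genes (0.34%) passed at 0.05 after adjustment: 62 rose (0.334%) and 1 fell (0.00539%). Of the 63, 36 belong to lists of liver genes, which is 29.8% of the 121 liver genes tested. The lists were written with earlier results of these data known, so this overlap is not independent support. In 53 of the 62 higher genes, EtP library 1 lay below Control library 1. The fit estimates the spread from 10 residual degrees of freedom, all from pairs of libraries numbered 2 and 3, and rests on 2 libraries per group.

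**Figure D1:**
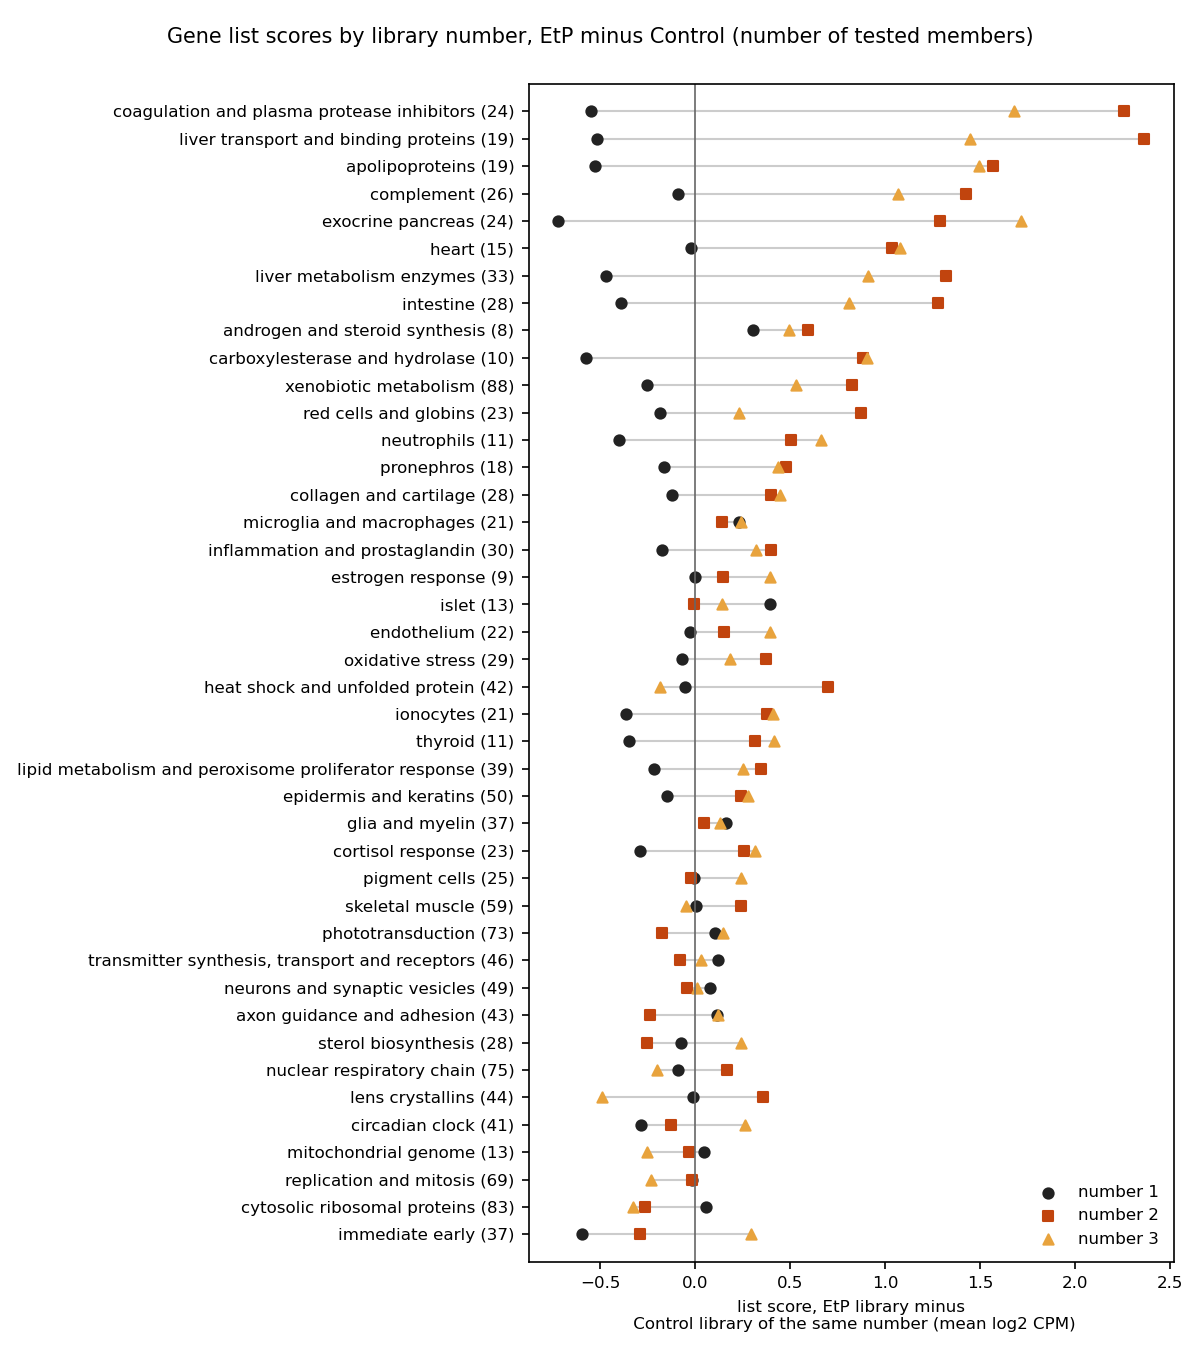
Difference of list scores between the EtP and the Control library of the same number (horizontal axis, mean log2 CPM of the tested members) for 42 gene lists, ordered by their mean difference, with the number of tested members in brackets. Circles are libraries numbered 1, squares number 2 and triangles number 3. The 5 liver lists, exocrine pancreas and intestine lie above 0.8 in numbers 2 and 3 and below 0 in number 1. The heart list and the list of carboxylesterases and hydrolases do so too.

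Liver genes differed between EtP and Control by library number. A list score is the mean log2 count per 1e6 reads (CPM) of its tested members. Over the 121 liver genes the score was 2.06, 4.32 and 4.13 in EtP libraries 1, 2 and 3, against 2.48, 2.59 and 2.86 in Control libraries 1, 2 and 3. Libraries 2 and 3 of EtP were thus above every Control library and library 1 below all of them, so the groups overlapped. The share of reads in transcripts annotated as retained introns was 1.09%, 0.852% and 0.895% in EtP libraries 1, 2 and 3, against 1.16%, 0.96% and 1.05% in Control. It was thus lowest in EtP libraries 2 and 3, where the liver score was highest, and it was highest in the library numbered 1 in 10 of 10 groups of the series; its part in the liver result was not tested. Counted gene by gene, 25 of the 121 were higher in EtP than in Control in number 1, 113 in number 2 and 113 in number 3, against 50.5%, 50.5% and 52.2% of all genes tested. In the test over all 6 libraries 113 of the 121 liver genes lay above 0 on the log2 scale, at a median of 1.32, 13 had an unadjusted p under 0.05 and higher levels with EtP (1.33% of all genes), and 0 had one and lower levels (0.717%). Groups did not overlap for 4 of the 121, all with EtP above, which is near the 3.17% of all genes. The median was 1.67 with numbers 2 and 3.

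Transport and binding proteins of the liver showed this pattern. Of 22 listed transport and binding proteins 19 were tested and 18 had a positive log2 fold change over the 6 libraries, with a median of 1.81 (1.17 without EtP library 2). Liver fatty acid binding protein, fabp10a, a hepatocyte marker in zebrafish, had 46.9, 368 and 307 CPM in EtP libraries 1, 2 and 3, against 73.0, 71.8 and 91.1 CPM in Control libraries 1, 2 and 3. EtP library 1 was the lowest of the 6 and EtP libraries 2 and 3 the highest. Its log2 fold change was 1.61 ± 1.07 (SE) over all libraries (edgeR adjusted p = 0.9999) and 2.05 ± 0.31 in numbers 2 and 3 (adjusted p = 0.0143). The vitamin D binding protein gc (ENSDARG00000089310, chromosome 5, 45677781 to 45725008, in a build that the sources used here do not name) had 2.63, 55.0 and 36.1 CPM in EtP libraries 1, 2 and 3, against 5.40, 2.97 and 6.20 CPM in Control libraries 1, 2 and 3. It differed by 2.69 ± 1.24 over all libraries and by 3.30 ± 0.43 in numbers 2 and 3 (adjusted p = 0.0116). Again EtP library 1 was below every Control library and EtP libraries 2 and 3 were above them all.

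Transthyretin, ttr (ENSDARG00000037191, chromosome 20, 6142433 to 6157942), which carries thyroid hormone, had 2.16, 32.5 and 31.4 CPM in EtP libraries 1, 2 and 3, against 7.08, 2.64 and 5.81 CPM in Control libraries 1, 2 and 3. Its difference was 2.91 ± 0.45 in numbers 2 and 3 (adjusted p = 0.0143). The iron carrier transferrin, tfa, had 22.9, 339 and 325 CPM in EtP libraries 1, 2 and 3, against 37.8, 27.4 and 58.1 CPM in Control libraries 1, 2 and 3, a difference of 2.96 ± 0.50 in numbers 2 and 3 (adjusted p = 0.0221). The groups overlapped for both genes through EtP library 1. The precursor of alpha-1-microglobulin, ambp, had 4.41, 49.6 and 32.4 CPM with EtP, against 7.30, 7.77 and 10.7 CPM in Control and rose by 2.15 ± 0.34 in numbers 2 and 3 (adjusted p = 0.0164). Hemopexin, hpxa, which binds free heme, was among the members with the smallest p over all libraries (3.53 ± 1.45, unadjusted p = 0.0228), at 0.188, 3.68 and 1.6 CPM with EtP, against 0.0701, 0 and 0.392 CPM in Control. It was listed at 0 in Control library 2 and did not pass in numbers 2 and 3 (adjusted p = 0.212). The fetuin gene ahsg1 had 0.469, 5.30 and 2.32 CPM with EtP, against 1.05, 0.744 and 0.941 CPM in Control and did not pass either (adjusted p = 0.153). Of the 19 tested carriers 18 were higher in numbers 2 and 3, and 9 of them passed there, against 0.334% of all genes. Another of them, the fetuin gene fetub, chosen after its values were seen, had 65.5, 576 and 341 CPM with EtP, against 95.7, 87.5 and 84.6 CPM in Control.

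**Figure D2:**
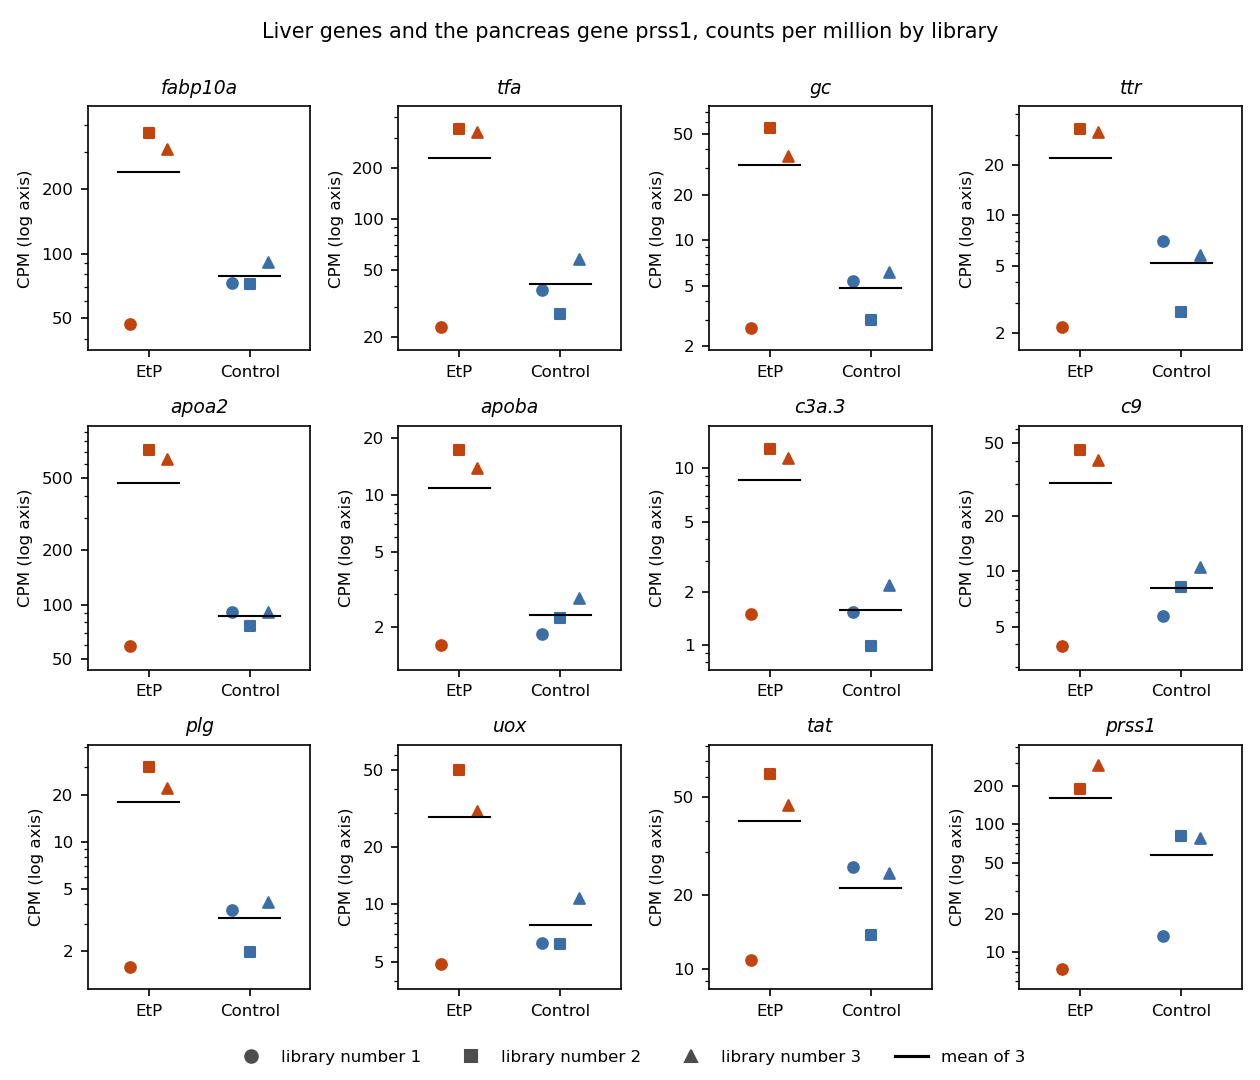
CPM (vertical axis, log scale) of 11 liver genes and the pancreatic trypsin gene prss1 in each EtP library (left) and each Control library (right), with the marker giving the library number and the line the mean of 3. In each panel EtP libraries 2 and 3 are the highest, and EtP library 1 lies below the Control library of number 1.

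Apolipoproteins, the protein part of the particles that carry lipid in blood, were higher with EtP in 19 of 19 tested members over the 6 libraries (23 listed), with a median log2 fold change of 1.38. By number, 3, 18 and 19 of the 19 lay above Control in libraries 1, 2 and 3. Apolipoprotein A-II, apoa2 (ENSDARG00000015866, chromosome 16, 23978978 to 23980354), had 59.5, 717 and 640.1 CPM in EtP libraries 1, 2 and 3, against 91.0, 76.5 and 91.5 CPM in Control libraries 1, 2 and 3. It differed by 2.45 ± 1.18 over all libraries and by 3.01 ± 0.46 in numbers 2 and 3 (adjusted p = 0.0143). Apolipoprotein B, apoba, around which the large lipoproteins are built, had 1.6, 17.3 and 13.9 CPM with EtP, against 1.82, 2.23 and 2.82 CPM in Control, and 2.62 ± 0.46 in numbers 2 and 3 (adjusted p = 0.0221). Apolipoprotein C-I, apoc1, had 44.4, 174 and 205 CPM with EtP, against 76.6, 43.1 and 49.6 CPM in Control. It was the one of these 3 in which EtP library 1 lay above a Control library, and it rose by 2.03 ± 0.33 in numbers 2 and 3 (adjusted p = 0.0195). In that fit 6 of the 19 passed, all higher with EtP, against 0.334% of all genes. The member apoa4a, at 0.282, 1.03 and 1.2 CPM with EtP, against 0.210, 0.165 and 0.314 CPM in Control, did not pass (adjusted p = 0.318).

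Per transcript length, on the TPM scale (transcripts per 1e6 transcripts) that the authors deposited, the 3 highest liver genes of the EtP libraries were fabp10a, apoa1b and apoa2. The level of fabp10a was 242, 1644 and 1398 TPM in EtP libraries 1, 2 and 3, against 381, 279 and 343 TPM in Control. That of apoa1b, an apolipoprotein A-I gene of high density lipoprotein, was 236, 1687 and 1280.4 TPM with EtP, against 394, 278 and 346 TPM in Control. Apolipoproteins together made up 864, 4809 and 4503 TPM of the EtP libraries and 1380.3, 951 and 1123 TPM of the Control libraries. The order of the first 3 genes was not separated from their spread, since each spanned a range of over 5 times among the EtP libraries. The zebrafish genome carries 2 apolipoprotein A-I genes, and reads that match both apoa1a and apoa1b could have been counted for either.

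The complement list, proteins that mark and lyse microbes, had 23 of 26 tested members above 0 (31 listed) and a median of 1.06. In numbers 2 and 3, 23 of the 26 were higher and 4 of them passed, against 0.334% of all genes. The C3 copy c3a.3 (ENSDARG00000052207, chromosome 1, 56274613 to 56320569) had 1.5, 12.8 and 11.4 CPM in EtP libraries 1, 2 and 3, against 1.54, 0.992 and 2.2 CPM in Control libraries 1, 2 and 3. Its log2 fold change was 2.44 ± 1.07 over all libraries and 2.91 ± 0.40 in numbers 2 and 3 (adjusted p = 0.0116). The neighbouring copies of C3 resemble each other, so the split of reads between them is uncertain. The pore-forming c9 had 3.94, 46.0 and 40.7 CPM with EtP, against 5.68, 8.18 and 10.6 CPM in Control, and 2.21 ± 0.34 in numbers 2 and 3 (adjusted p = 0.0143). Another part of the membrane attack complex, c8a, had 0.938, 7.10 and 5.68 CPM with EtP, against 1.82, 1.16 and 1.65 CPM in Control and rose by 2.18 ± 0.38 in numbers 2 and 3 (adjusted p = 0.0221). The member c7b had groups that did not overlap, with 7.13, 4.78 and 6.32 CPM in EtP libraries 1, 2 and 3, against 4.42, 2.89 and 4.39 CPM in Control libraries 1, 2 and 3, so that EtP library 1 was its highest, and a log2 fold change of 0.63 ± 0.28 (unadjusted p = 0.0325).

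Clotting factors and plasma protease inhibitors had the largest number of calls among the 5 liver lists in numbers 2 and 3. These were 13 of 24 tested members (29 listed), all higher with EtP, against 0.334% of all genes. Over the 6 libraries 23 of 24 lay above 0, at a median of 1.80. Plasminogen, plg (ENSDARG00000023111, chromosome 20, 42688488 to 42702884), whose product dissolves clots, had 1.6, 29.8 and 22.1 CPM in EtP libraries 1, 2 and 3, against 3.65, 1.98 and 4.16 CPM in Control libraries 1, 2 and 3. It differed by 3.07 ± 0.47 in numbers 2 and 3 (adjusted p = 0.0143). The inhibitor of plasmin serpinf2a had 0.845, 11.9 and 8.64 CPM with EtP, against 2.31, 1.49 and 1.57 CPM in Control and a difference of 2.74 ± 0.42 there (adjusted p = 0.0143). A protease and its inhibitor were thus both higher in EtP libraries 2 and 3 and both lowest in EtP library 1. The vitronectin genes vtna (1.31, 8.01 and 7.84 CPM with EtP, against 1.68, 1.32 and 1.96 CPM in Control) and vtnb (3.1, 12.8 and 10.96 CPM with EtP, against 4.70, 3.88 and 4.001 CPM in Control) rose by 2.26 ± 0.37 and 1.59 ± 0.30 (adjusted p = 0.0197 and 0.0324). The 3 chains of fibrinogen, named after their values were seen, rose by 2.23 ± 0.42 for fga (adjusted p = 0.0324), 2.32 ± 0.44 for fgb (0.0364) and 2.75 ± 0.47 for fgg (0.0221) in numbers 2 and 3. Prothrombin, f2, likewise chosen afterwards, had 2.06, 33.2 and 28.8 CPM with EtP, against 5.05, 5.37 and 8.32 CPM in Control. The anticoagulant protein C gene proca (2.44, 9.69 and 8.88 CPM with EtP, against 2.38, 2.73 and 3.29 CPM in Control) had an adjusted p of 0.0502 in numbers 2 and 3, and the heparin cofactor serpind1 (0.375, 2.39 and 1.36 CPM with EtP, against 0.561, 0.248 and 0.157 CPM in Control) one of 0.0750.

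Enzymes of liver metabolism differed less. Their median was 0.88 over the 6 libraries (0.42 without EtP library 2), with 30 of 33 tested members above 0 (35 listed). In numbers 2 and 3, 32 of the 33 were higher and 4 of them passed, against 0.334% of all genes. Tyrosine aminotransferase, tat, which starts tyrosine breakdown, had 10.9, 62.0 and 46.4 CPM in EtP libraries 1, 2 and 3, against 25.95, 13.8 and 24.6 CPM in Control libraries 1, 2 and 3. It rose by 1.5 ± 0.24 in numbers 2 and 3 (adjusted p = 0.0164), and in number 1 EtP lay -1.24 from Control on the log2 scale. The effect in number 1 and that in numbers 2 and 3 differed for 8 of 18543 genes (0.0431%), and tat was the 1 liver gene among them. Number 1 has 1 library per group, whose spread is assumed to equal that of numbers 2 and 3. Its difference was -2.75 ± 0.43 (interaction test, edgeR adjusted p = 0.0274). Urate oxidase, uox, had 4.88, 50.2 and 30.7 CPM with EtP, against 6.31, 6.20 and 10.8 CPM in Control and rose by 2.25 ± 0.42 in numbers 2 and 3 (adjusted p = 0.0324). The glucose-6-phosphatase gene g6pca.1 had 0.0938, 5.62 and 4.16 CPM with EtP, against 0.912, 1.16 and 0.471 CPM in Control, and the histidine-degrading uroc1 0.845, 6.85 and 3.76 CPM with EtP, against 0.351, 0.826 and 0.863 CPM in Control. Neither passed (adjusted p = 0.107 and 0.119 in numbers 2 and 3).

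Genes outside the 5 lists that passed in numbers 2 and 3 included other products known from liver. Hepcidin, hamp, the hormone of iron balance, had 0.563, 4.78 and 2.72 CPM with EtP, against 0.701, 0.331 and 0.235 CPM in Control and rose by 3.70 ± 0.67 (adjusted p = 0.0296). Sex hormone binding globulin, shbg, chosen after its values were seen, had 1.13, 11.4 and 9.04 CPM with EtP, against 1.26, 1.16 and 2.2 CPM in Control and rose by 2.60 ± 0.43 (adjusted p = 0.0197). The pentraxin crp2, chosen likewise, rose by 2.87 ± 0.48 (adjusted p = 0.0197). Among the 15 higher genes with the smallest adjusted p were also cdab, a cytidine deaminase gene (1.03, 6.91 and 4.96 CPM with EtP, against 2.17, 1.24 and 1.57 CPM in Control), and the unnamed zgc:123103 (8.92, 71.8 and 74.0 CPM with EtP, against 14.5, 9.83 and 12.4 CPM in Control) and si:ch211-270n8.1 (0.845, 10.98 and 10.4 CPM with EtP, against 0.561, 0.0826 and 1.02 CPM in Control). The single lower gene was cep97, which encodes a centrosomal protein. It had 20.8, 13.1 and 13.1 CPM in EtP libraries 1, 2 and 3, against 19.6, 23.1 and 21.2 CPM in Control libraries 1, 2 and 3. EtP libraries 2 and 3 were its lowest, EtP library 1 lay among the Control libraries, and the difference in numbers 2 and 3 was -0.76 ± 0.13 (adjusted p = 0.0216).

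**Figure D3:**
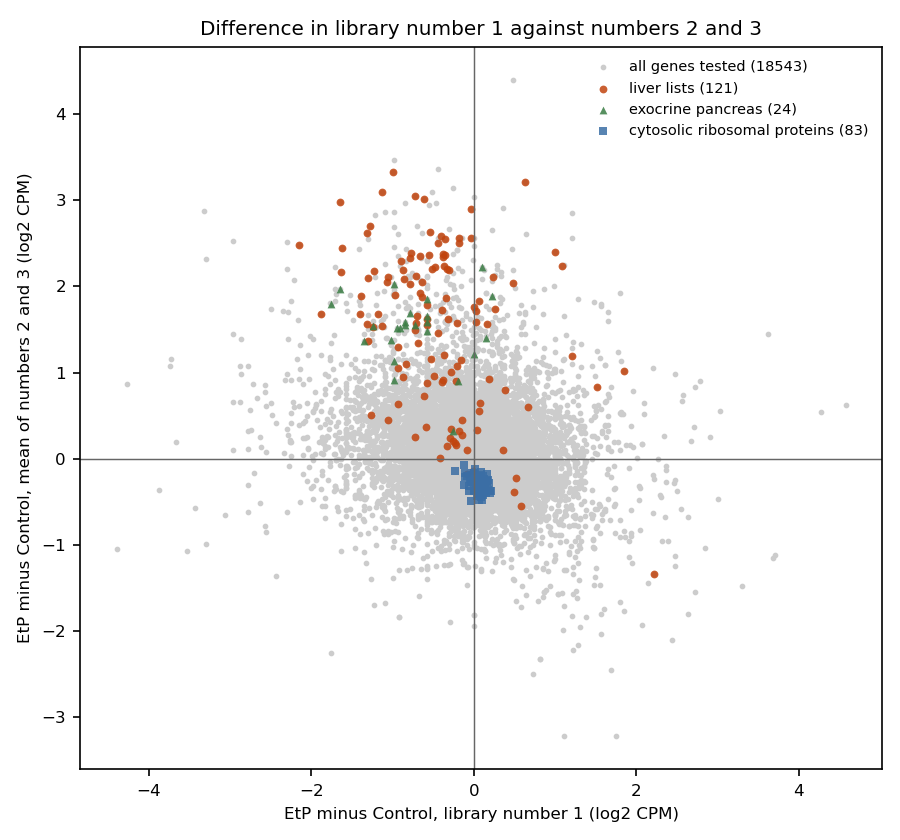
EtP minus Control on the log2 CPM scale in the libraries numbered 1 (horizontal axis) and as the mean of numbers 2 and 3 (vertical axis) for 18543 tested genes in grey. Liver genes (121, orange circles) and exocrine pancreas genes (24, green triangles) lie mostly at upper left, above 0 in numbers 2 and 3 and below 0 in number 1, where 25 of the 121 liver genes lie above 0, and ribosomal protein genes (83, blue squares) just below 0 in numbers 2 and 3.

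Digestive enzyme genes of the exocrine pancreas were likewise highest in EtP libraries 2 and 3, but had no calls. All 24 tested members (38 listed) lay above 0 over the 6 libraries, against 52.6% of all genes, with a median of 1.51 (0.83 without EtP library 3). By number 3, 23 and 24 of 24 lay above Control in libraries 1, 2 and 3. The trypsin gene prss1 had 7.41, 188 and 289 CPM in EtP libraries 1, 2 and 3, against 13.4, 81.0 and 77.9 CPM in Control libraries 1, 2 and 3, a log2 fold change of 1.49 (95% interval -1.34 to 4.33). Control library 1 was also well below Control libraries 2 and 3, so that libraries numbered 1 were low in both groups. Amylase, amy2a, had 0.845, 20.8 and 15.6 CPM with EtP, against 0.701, 4.05 and 5.57 CPM in Control, and the carboxypeptidase gene cpa5 had 0.751, 31.1 and 57.8 CPM with EtP, against 2.67, 10.3 and 11.2 CPM in Control. In numbers 2 and 3 the median of the list was 1.6 and 0 members passed, with an adjusted p of 0.426 for prss1, 0.283 for amy2a and 0.345 for cpa5. The trypsin genes prss59.1 and its neighbours resemble each other, and their reads cannot be told apart here.

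Intestinal genes lay higher in 22 of 28 tested members (37 listed), with a median of 0.79 over the 6 libraries (1.24 without EtP library 1 and 0.48 without EtP library 3) and list scores of 2.37, 4.50 and 4.36 in EtP libraries 1, 2 and 3, against 2.76, 3.22 and 3.55 in Control. The peptide transporter slc15a1b had 2.06, 9.11 and 8.96 CPM with EtP, against 1.61, 1.57 and 2.28 CPM in Control and a log2 fold change of 1.89 ± 0.81 (unadjusted p = 0.0293). The glucose transporter slc5a1 had 1.69, 9.75 and 7.60 CPM with EtP, against 1.75, 2.97 and 2.43 CPM in Control. Both were highest in EtP libraries 2 and 3. EtP library 1 lay among the Control libraries for slc15a1b and below them for slc5a1. The chitinase gene chia.1 had 1.13, 34.7 and 15.7 CPM with EtP, against 2.81, 1.82 and 5.41 CPM in Control (2.37 ± 1.04, unadjusted p = 0.0330). In numbers 2 and 3 the adjusted p of these 3 genes was 0.211, 0.106 and 0.172, and 0 members of the list passed.

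Heart genes were higher in 14 of 15 tested members (26 listed), with a median of 0.74. It was 1.15 without EtP library 1, 0.46 without EtP library 3 and 0.47 without Control library 1. The light chain myl7 had 0.469, 9.75 and 11.4 CPM with EtP, against 0.701, 0.992 and 1.49 CPM in Control and cmlc1 0.469, 5.04 and 6.64 CPM with EtP, against 0.561, 0.909 and 1.02 CPM in Control. In these 2 genes EtP libraries 2 and 3 held several times the level of any Control library, and EtP library 1 the lowest level. The natriuretic peptide gene nppa was listed at 0 in EtP library 1 and in Control library 2, with 0, 1.55 and 2.16 CPM with EtP, against 0.140, 0 and 0.0785 CPM in Control. The adjusted p was 0.0759 for myl7, 0.0994 for cmlc1 and 0.140 for nppa in numbers 2 and 3. Red cell genes were higher in 22 of 23 tested members (35 listed), with scores of 3.22, 4.76 and 4.85 with EtP against 3.40, 3.88 and 4.62 in Control, and the red cell ammonium channel gene rhag had 44.3, 94.9 and 126 CPM with EtP, against 36.5, 57.9 and 68.4 CPM in Control. Control library 3 was close to EtP libraries 2 and 3 on that list, and its median of 0.34 ranged over 0.13 (without EtP library 3) to 0.88 (without Control library 3).

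Skeletal muscle, skin and skeleton lists lay closer to Control. Skeletal muscle had 34 of 59 tested members above 0 and a median of 0.03, and the fast light chain mylpfa had 11704, 12088 and 11132 CPM with EtP, against 7027, 14978 and 16626 CPM in Control, with Control library 1 the lowest. Its log2 fold change was -0.15 (95% interval -0.98 to 0.68). For epidermis and keratins the count was 36 of 50 with a median of 0.14. Envoplakin, evpla, a member of this list, had 10.9, 18.5 and 24.2 CPM in EtP libraries 1, 2 and 3, against 6.94, 10.6 and 10.6 CPM in Control libraries 1, 2 and 3. Its groups did not overlap, and it rose by 1.01 ± 0.19 in numbers 2 and 3 (adjusted p = 0.0370), the only member of its list to pass there. Collagen and cartilage genes were higher in 26 of 28 with a median of 0.21, among them the cartilage matrix gene matn1 at 8.92, 28.7 and 40.9 CPM with EtP, against 6.38, 17.0 and 14.3 CPM in Control. For that gene EtP library 1 lay below Control libraries 2 and 3. Without EtP library 3 the medians were -0.06 for skeletal muscle, -0.03 for epidermis and -0.04 for collagen and cartilage, and without EtP library 1 they were 0.27, 0.39 and 0.54.

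The neuronal and glial lists, which bear on the question in the title of the series, lay within 0.1 of Control at their medians. Neurons and synaptic vesicles had 23 of 49 tested members above 0 (51 listed) and a median of -0.00, with scores of 6.77, 6.43 and 6.41 in EtP libraries 1, 2 and 3, against 6.69, 6.47 and 6.41 in Control. Transmitter synthesis, transport and receptors had 27 of 46 and a median of 0.02, and axon guidance and adhesion 19 of 43 and -0.01. The signs of these 3 medians changed when single libraries were left out, for neurons to -0.14 without EtP library 1 and to 0.08 without Control library 1. In numbers 2 and 3 the medians were -0.05, -0.04 and -0.11, and 0 members of the 3 lists passed. For both groups the neuronal score was highest in the library numbered 1.

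Among the members of the neuronal list with the smallest p were genes of neurofilaments, the intermediate filaments of axons. The medium chain nefma (ENSDARG00000021351, chromosome 21, 19013850 to 19018455) had 28.1, 30.7 and 31.0 CPM in EtP libraries 1, 2 and 3, against 22.0, 16.2 and 19.2 CPM in Control libraries 1, 2 and 3. Every EtP library was above every Control library, and the log2 fold change was 0.65 ± 0.26 (unadjusted p = 0.0184, adjusted p = 0.9999). Its copy nefmb had 35.3, 33.8 and 39.0 CPM in EtP libraries 1, 2 and 3, against 25.7, 24.4 and 30.5 CPM in Control libraries 1, 2 and 3, and the light chain gene neflb 22.1, 21.4 and 23.4 CPM in EtP libraries 1, 2 and 3, against 17.4, 13.2 and 19.5 CPM in Control libraries 1, 2 and 3. Their log2 fold changes were 0.42 ± 0.21 and 0.42 ± 0.21, and the groups did not overlap for either. In all, 4 of the 49 tested neuronal genes had EtP above Control in every library and 0 had it below, against 3.17% and 3.34% of all genes. Peripherin, prph, another neuronal intermediate filament gene, and the granule protein gene chga, both chosen after their values were seen, had 24.9, 21.2 and 20.7 CPM with EtP, against 15.6, 15.12 and 17.9 CPM in Control and 36.1, 33.8 and 28.4 CPM with EtP, against 27.9, 25.7 and 26.3 CPM in Control. The reads of the paralogs nefma and nefmb may be partly shared. None of these genes passed in numbers 2 and 3 (adjusted p = 0.209 for nefma, 0.342 for nefmb and 0.370 for neflb).

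Glia and myelin genes had 22 of 37 tested members above 0 (40 listed), a median of 0.09, and list scores of 4.52, 4.41 and 4.45 in EtP libraries 1, 2 and 3, against 4.35, 4.36 and 4.32 in Control libraries 1, 2 and 3. The EtP library was above the Control library in each number, and the lowest EtP score was above the highest Control score. Member by member, 24, 19 and 21 of the 37 lay above Control in numbers 1, 2 and 3, against 50.5%, 50.5% and 52.2% of all genes. The summed TPM of the list overlapped between groups. It was 2614, 1983 and 2029 in EtP libraries 1, 2 and 3, against 2763, 1667 and 1782 in Control, with EtP below Control in number 1. The myelin gene mpz (ENSDARG00000038609, chromosome 2, 44259482 to 44283554) had 25.8, 21.6 and 27.7 CPM in EtP libraries 1, 2 and 3, against 18.1, 12.6 and 15.2 CPM in Control libraries 1, 2 and 3, and the myelin proteolipid gene plp1b had 45.8, 35.8 and 45.2 CPM in EtP libraries 1, 2 and 3, against 34.02, 29.99 and 34.7 CPM in Control libraries 1, 2 and 3. Their log2 fold changes were 0.71 ± 0.24 and 0.36 ± 0.12 (unadjusted p = 0.00780 and 0.00782). The groups did not overlap in either gene. Myelin basic protein, mbpa, had 53.7, 76.1 and 81.0 CPM with EtP, against 43.8, 43.0 and 57.8 CPM in Control, a log2 fold change of 0.54 (95% interval -0.11 to 1.19), with EtP library 1 below Control library 3. The astroglial filament gene gfap had 122, 154 and 148 CPM with EtP, against 66.2, 102 and 148 CPM in Control, and its Control libraries spread by over 2-fold. The complement regulator cd59, a marker of myelinating glia in zebrafish, had 18.5, 21.3 and 26.4 CPM with EtP, against 15.3, 15.3 and 16.9 CPM in Control, again without overlap. With the libraries numbered 1 of every group in the series left out, the median of the list was 0.03. No glial gene passed in either fit (edgeR), and 4 of 37 had EtP above Control in every library and 0 below, against 3.17% and 3.34% of all genes.

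**Figure D4:**
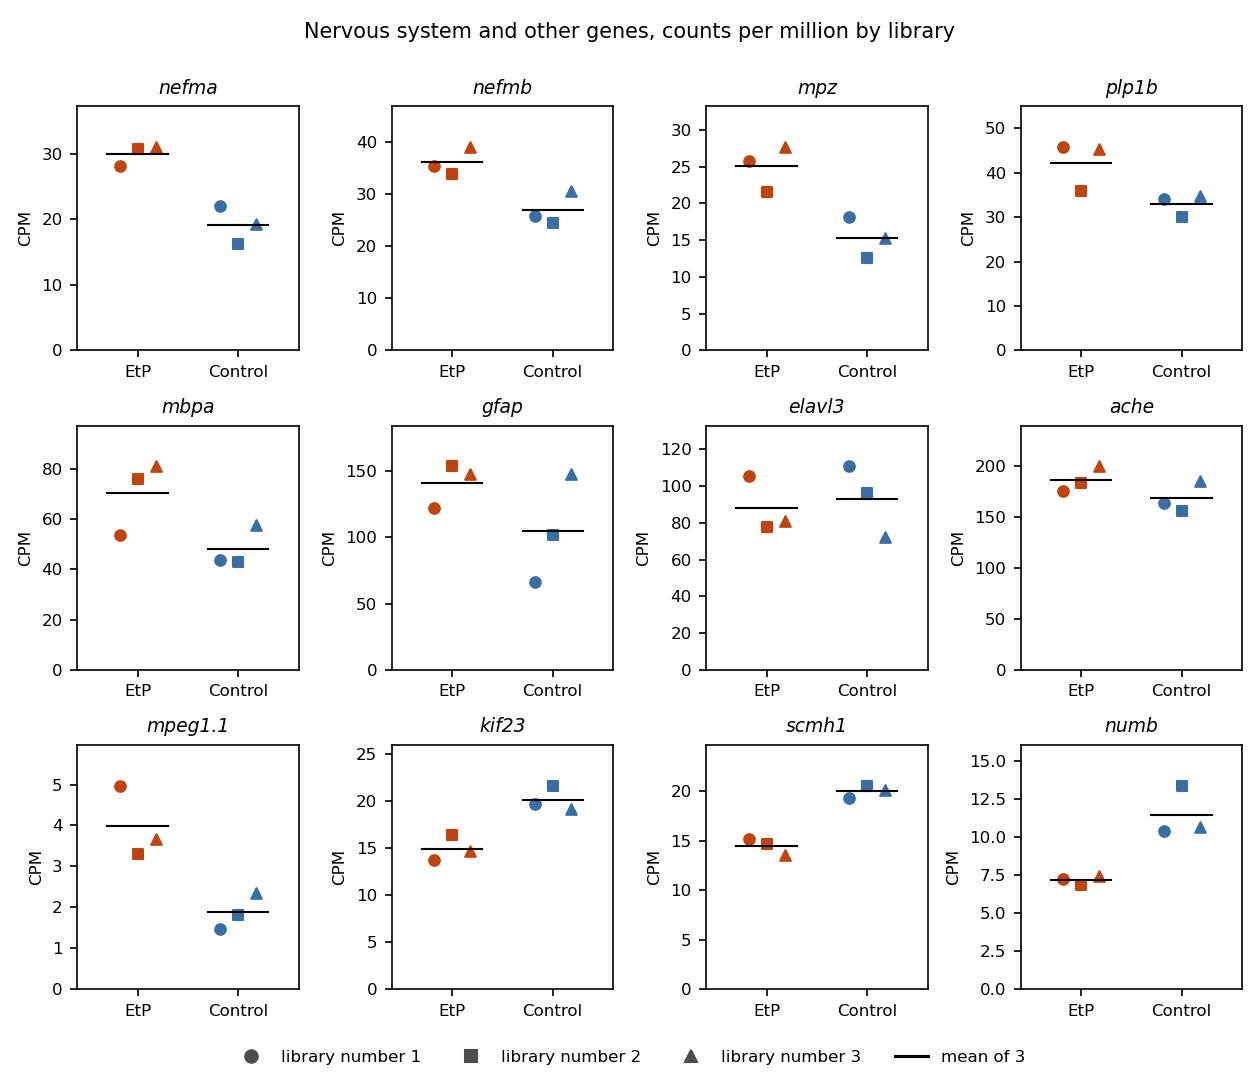
CPM (vertical axis, from 0) of 8 nervous system genes, the macrophage gene mpeg1.1 and 3 genes below Control in each EtP library (left) and each Control library (right), with the marker giving the library number and the line the mean of 3. Groups do not overlap for nefma, nefmb, mpz, plp1b, mpeg1.1, kif23, scmh1 and numb, and overlap for mbpa, gfap, elavl3 and ache.

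No other neural gene described here passed in either fit. The neuronal RNA binding protein elavl3 had 105, 77.6 and 81.0 CPM with EtP, against 111, 96.3 and 72.3 CPM in Control, a log2 fold change of -0.08 (95% interval -0.52 to 0.36). Acetylcholinesterase, ache, which ends cholinergic signals, had 175, 184 and 199.7 CPM with EtP, against 164, 156 and 185 CPM in Control, a log2 fold change of 0.15 (95% interval -0.12 to 0.41). The choline transporter slc5a7a and the dopamine transporter slc6a3 had 3.19, 3.49 and 3.04 CPM with EtP, against 3.37, 2.97 and 1.80 CPM in Control and 7.32, 4.004 and 4.48 CPM with EtP, against 3.51, 4.13 and 3.92 CPM in Control. Dopa decarboxylase, ddc, an enzyme of dopamine and serotonin synthesis, had the smallest p of its list, with 9.85, 8.4 and 6.64 CPM with EtP, against 5.33, 5.37 and 6.90 CPM in Control (0.50 ± 0.23, unadjusted p = 0.0375), and its groups overlapped. Of axon guidance genes the semaphorins sema3aa (39.0, 37.3 and 43.1 CPM with EtP, against 33.2, 35.7 and 31.3 CPM in Control) and sema5a (34.6, 32.4 and 35.0 CPM with EtP, against 29.8, 31.8 and 30.7 CPM in Control) lay above Control in every library, and the ephrin efna1b (101, 96.7 and 84.2 CPM with EtP, against 126, 109 and 117.4 CPM in Control) below it. The log2 fold changes were 0.25 ± 0.13, 0.15 ± 0.09 and -0.33 ± 0.22. Of the 43 tested axon guidance genes, 3 had EtP above Control in every library and 1 had it below. For all genes the shares were 3.17% above and 3.34% below, so that the 1 is near the background. Phototransduction genes had 41 of 73 tested members above 0 and a median of 0.04, with EtP minus Control scores of 0.10, -0.17 and 0.15 in numbers 1, 2 and 3.

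Lens crystallins had 29 of 44 tested members below 0 and a median of -0.17, and 8 members had EtP below Control in every library, against 3.34% of all genes. The gamma crystallins crygm2d6 (424, 404 and 379 CPM with EtP, against 458, 477 and 648 CPM in Control) and crygm2d20 (1427, 1246 and 1074 CPM with EtP, against 1519, 1468 and 1915 CPM in Control) were among them. Control library 3 held their highest level, and without it the median of the list was 0.03. The list score of EtP minus Control was -0.01, 0.36 and -0.49 in numbers 1, 2 and 3. By number, 20, 31 and 7 of the 44 members lay above Control, so the direction was not the same in number 2. Many gamma crystallin genes are near-identical copies whose reads can be split between them, so these members may not be independent.

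Macrophage genes were higher in 16 of 21 tested members (24 listed), with a median of 0.17 (0.27 without EtP library 1). The perforin gene mpeg1.1, a macrophage and microglia marker, had 4.97, 3.29 and 3.68 CPM in EtP libraries 1, 2 and 3, against 1.47, 1.82 and 2.35 CPM in Control libraries 1, 2 and 3. The groups did not overlap, and the log2 fold change was 1.08 ± 0.32 (unadjusted p = 0.00271). With clone and accession names left out, mpeg1.1 was among the 10 higher genes with the smallest p. The macrophage gene mfap4 had 2.16, 2.26 and 2.56 CPM with EtP, against 1.12, 0.992 and 1.88 CPM in Control, again with EtP above Control throughout. In all, 3 of the 21 tested members had EtP above Control in every library and 2 had it below, against 3.17% and 3.34% of all genes. The macrophage factor spi1a was not separated, at 1.69, 1.42 and 1.36 CPM with EtP, against 1.61, 2.56 and 1.80 CPM in Control, and il1b, an inflammatory cytokine, had 0.938, 1.03 and 0.640 CPM with EtP, against 0.982, 0.661 and 0.784 CPM in Control. Neutrophil genes had scores of 1.32, 2.65 and 3.04 with EtP, against 1.73, 2.14 and 2.38 in Control, lowest in EtP library 1 and highest in EtP libraries 2 and 3.

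Ribosomal protein genes were the 1 list of the 42 with every tested member below 0. All 83 tested members (86 listed) had a log2 fold change below 0 over the 6 libraries, against 47.4% of all genes, with a median of -0.20. These genes are not 83 independent observations. By number, 64, 0 and 0 of the 83 lay above Control in libraries 1, 2 and 3. The acidic protein gene rplp2 had 592, 597 and 594 CPM in EtP libraries 1, 2 and 3, against 564, 813 and 843 CPM in Control libraries 1, 2 and 3. Its level was alike in the 3 EtP libraries and in Control library 1, and higher in Control libraries 2 and 3. The log2 fold change was -0.32 ± 0.15 (unadjusted p = 0.0419), and it was -0.48 ± 0.14 in numbers 2 and 3 (adjusted p = 0.186). The small subunit gene rps25 had 967, 1014 and 924 CPM with EtP, against 903, 1332 and 1372 CPM in Control. The median was -0.34 without Control library 1 and -0.11 without Control library 3, and the direction was the same under RLE scaling. Mitochondrial genome transcripts had 11 of 13 members below 0 (median -0.10), with mt-co2 at 8383, 7809 and 8348 CPM with EtP, against 7953, 8634 and 10867 CPM in Control, and nuclear respiratory chain genes 49 of 75 (median -0.06). Without Control library 3 both medians were 0.05, and without EtP library 1 that of the nuclear list was 0.03.

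Replication and mitosis genes lay slightly lower, in 48 of 69 tested members with a median of -0.10 (-0.03 without EtP library 3). The list score of EtP minus Control was -0.02, -0.02 and -0.23 in numbers 1, 2 and 3. By number, 31, 34 and 14 of the 69 lay above Control, against 50.5%, 50.5% and 52.2% of all genes. Libraries did not overlap for 10 of the 69 with EtP below and 2 with EtP above, against 3.34% and 3.17% of all genes. The 2 are thus near the background. The kinesin gene of cytokinesis kif23 had 13.7, 16.4 and 14.7 CPM in EtP libraries 1, 2 and 3, against 19.7, 21.6 and 19.1 CPM in Control libraries 1, 2 and 3. The log2 fold change was -0.43 ± 0.16 (unadjusted p = 0.0129). The replication initiation gene mcm10 had 1.31, 1.68 and 1.52 CPM with EtP, against 2.17, 2.07 and 2.43 CPM in Control and the cyclin ccnb3 9.95, 10.8 and 7.52 CPM with EtP, against 12.4, 11.1 and 11.3 CPM in Control, both below Control in every library. Against them, the single-strand DNA binding gene rpa1 had 54.6, 51.0 and 54.0 CPM with EtP, against 45.7, 47.6 and 48.8 CPM in Control, above Control in every library.

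The 10 higher and 10 lower genes with the smallest p were taken after leaving out symbols that are clone or accession names. Of them, all but cfhl5 and cep57l1 had groups that did not overlap, EtP library 1 included. Ranking by p favours genes whose groups do not overlap, so this is not independent support. The RNase P subunit gene rpp38 (ENSDARG00000040350, chromosome 16, 28592495 to 28594181) had 6.85, 5.94 and 7.44 CPM in EtP libraries 1, 2 and 3, against 3.44, 3.64 and 4.001 CPM in Control libraries 1, 2 and 3. It had the smallest p of these higher genes (0.87 ± 0.22, unadjusted p = 6.08e-04). The homeobox gene hoxc5a had 5.72, 6.39 and 6.64 CPM with EtP, against 3.23, 3.55 and 2.82 CPM in Control, and the membrane raft protein gene flot2a 84.0, 86.4 and 88.4 CPM with EtP, against 65.5, 70.9 and 64.6 CPM in Control. In all 3 genes every EtP library was above every Control library. Of the lower genes, the Polycomb gene scmh1 (ENSDARG00000104311, chromosome 16, 35555029 to 35586411) had 15.2, 14.7 and 13.5 CPM in EtP libraries 1, 2 and 3, against 19.4, 20.6 and 20.2 CPM in Control libraries 1, 2 and 3, a log2 fold change of -0.47 ± 0.13 (unadjusted p = 0.00148). The Notch inhibitor numb (ENSDARG00000027279, chromosome 17, 51821906 to 51893123), which acts in asymmetric divisions of neural progenitors, had 7.23, 6.85 and 7.44 CPM in EtP libraries 1, 2 and 3, against 10.4, 13.4 and 10.7 CPM in Control libraries 1, 2 and 3. It differed by -0.68 ± 0.19 (unadjusted p = 0.00169), with the libraries of each group close together. The telomere gene stn1 had 2.91, 3.55 and 2.24 CPM with EtP, against 5.33, 3.97 and 4.31 CPM in Control, and the lipase maturation factor gene lmf1 2.25, 2.26 and 1.84 CPM with EtP, against 3.79, 3.06 and 3.06 CPM in Control. With an adjusted p of 0.9999 for each, none of these genes passed over all genes tested.

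The widest gaps between groups that did not overlap, among genes of at least 5 CPM, gave a further set. With EtP above were the growth factor gene bmp4 (5.63, 6.52 and 6.72 CPM with EtP, against 4.28, 4.30 and 3.29 CPM in Control), the cationic amino acid transporter gene slc7a2 (13.6, 13.8 and 15.5 CPM with EtP, against 10.9, 9.50 and 9.96 CPM in Control) and the acyl-CoA thioesterase gene acot18 (7.04, 5.55 and 7.20 CPM with EtP, against 4.14, 4.30 and 4.47 CPM in Control). With EtP below were slx4, a scaffold of DNA repair nucleases (7.04, 7.62 and 4.0 CPM with EtP, against 15.4, 10.3 and 9.73 CPM in Control), the ubiquitin ligase gene rfwd3 (6.01, 5.94 and 3.6 CPM with EtP, against 7.93, 7.52 and 7.22 CPM in Control) and the proprotein convertase gene furinb (44.9, 45.3 and 39.2 CPM with EtP, against 65.6, 54.5 and 57.3 CPM in Control). Their log2 fold changes were 0.67 ± 0.27, 0.50 ± 0.31 and 0.61 ± 0.29 above, and -0.93 ± 0.35, -0.54 ± 0.19 and -0.46 ± 0.26 below. The share of all genes without overlap, 3.17% above and 3.34% below, is the background to these names.

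Genes that handle foreign compounds were higher in 73 of 88 tested members (109 listed), with a median of 0.41 (0.67 without EtP library 1 and 0.19 without EtP library 2) and scores of 1.89, 3.16 and 3.02 with EtP, against 2.15, 2.34 and 2.49 in Control. Many are made in liver and intestine, and the score, like that of the liver genes, was lowest in EtP library 1 and highest in EtP libraries 2 and 3; the part of liver RNA in this was not tested. The aryl hydrocarbon receptor target cyp1a had 2.63, 8.46 and 8.80 CPM in EtP libraries 1, 2 and 3, against 2.31, 3.47 and 4.47 CPM in Control libraries 1, 2 and 3, a log2 fold change of 0.97 (95% interval -0.29 to 2.22). The cytochrome gene cyp2ad2 had 8.92, 28.9 and 17.4 CPM with EtP, against 8.70, 6.45 and 11.2 CPM in Control and rose by 1.39 ± 0.28 in numbers 2 and 3 (adjusted p = 0.0481). Of the carboxylesterases, the enzyme class that cleaves parabens in mammals, ces2a had 13.5, 159 and 75.3 CPM with EtP, against 24.5, 26.6 and 36.2 CPM in Control and ces3 3.19, 40.8 and 21.6 CPM with EtP, against 5.12, 6.11 and 7.92 CPM in Control. Neither passed (adjusted p = 0.103 and 0.0619 in numbers 2 and 3), and EtP library 1 was the lowest of the 6 in both. The copy ces2b had 6.48, 12.3 and 7.44 CPM with EtP, against 4.21, 5.70 and 5.26 CPM in Control, with EtP above Control in every library (0.80 ± 0.51). The organic anion carrier slco1d1 had 7.60, 25.6 and 21.1 CPM with EtP, against 5.68, 6.86 and 7.61 CPM in Control (adjusted p = 0.0519 in numbers 2 and 3).

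Endocrine lists were thinly measured. The egg yolk gene vtg1, a standard readout of estrogen in fish, had 0, 0 and 1 reads in EtP libraries 1, 2 and 3 and 0, 1 and 0 in Control, too few to test. The brain aromatase gene cyp19a1b had 2, 5 and 5 reads with EtP and 4, 3 and 1 in Control, and thyrotropin beta, tshba, had 6, 3 and 2 with EtP and 2, 1 and 4 in Control. Of 20 listed estrogen response genes 9 were tested, with a median of 0.13 (-0.06 without EtP library 3), and of 22 thyroid genes 11, with a median of 0.02 (-0.03 without EtP library 1 and 0.19 without Control library 1). Androgen and steroid synthesis had 8 tested of 16 listed members, all with a log2 fold change above 0 (median 0.41) and with the EtP score above Control in each number, by 0.31, 0.59 and 0.50. The 21-hydroxylase gene cyp21a2 had 0.375, 1.16 and 0.80 CPM with EtP, against 0.210, 0.248 and 0.157 CPM in Control, few reads without overlap of the groups (1.92 ± 0.88, unadjusted p = 0.0398). The cholesterol carrier star had 3.28, 4.33 and 4.0 CPM with EtP, against 2.24, 3.14 and 3.14 CPM in Control, with EtP above Control in every library. The ferredoxin gene fdx1b, from the list of cortisol response, lay below Control in every library at 0.375, 0.129 and 0.0800 CPM with EtP, against 0.842, 0.992 and 0.549 CPM in Control (-2.05 ± 0.70, unadjusted p = 0.00752). Its difference too rests on few reads.

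Stress genes followed single libraries. The chaperone gene hsp70.1 had 51.8, 34.6 and 16.2 CPM in EtP libraries 1, 2 and 3, against 15.9, 10.25 and 17.0 CPM in Control libraries 1, 2 and 3, with 2 EtP libraries above Control and EtP library 3 among it (1.25 ± 0.51, unadjusted p = 0.0216). The related hsp70.3 had 59.12, 77.9 and 25.1 CPM with EtP, against 33.4, 11.1 and 36.9 CPM in Control. The heat shock copies share sequence, so their reads may be mixed. Of immediate early genes 28 of 37 tested members were below 0 (median -0.19), by scores of -0.60, -0.29 and 0.29 in numbers 1, 2 and 3. The phosphatase gene dusp1 had 31.4, 39.5 and 47.1 CPM in EtP libraries 1, 2 and 3, against 79.9, 44.04 and 44.9 CPM in Control libraries 1, 2 and 3, and the growth arrest gene gadd45ba 42.7, 34.7 and 53.4 CPM with EtP, against 90.1, 49.8 and 62.4 CPM in Control. Control library 1 was the highest of the 6 for both, and without it the median of the list was 0.08. Clock genes had 16 of 41 members above 0, with a median of -0.03 that turned to 0.08 without Control library 1 and to 0.12 in numbers 2 and 3, and with per1b at 54.7, 52.2 and 85.7 CPM with EtP, against 64.6, 41.5 and 62.7 CPM in Control. Of 29 tested oxidative stress genes 24 lay above 0 over the 6 libraries, and 11, 26 and 19 lay above Control in numbers 1, 2 and 3. Thioredoxin, txn, had 20.6, 13.3 and 14.1 CPM with EtP, against 10.17, 9.83 and 11.8 CPM in Control (0.59 ± 0.23). It was the 1 member of the 29 with EtP above Control in every library, which is near the 3.17% of all genes.

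The liver pattern was set beside the groups most like EtP at BMD5, whose labels name a dose step and not a known concentration. The liver score was 2.06, 4.32 and 4.13 in libraries 1, 2 and 3 of EtP at BMD5. It was 1.74, 4.48 and 4.53 in those of EtP at BMD5/10, 1.93, 4.08 and 4.47 in those of EtP at BMD5/50, 1.57, 2.78 and 2.88 in those of MtP at BMD5, 1.68, 3.45 and 3.93 in those of PrP at BMD5, and 2.48, 2.59 and 2.86 in Control. EtP at BMD5 thus lay beside both lower EtP labels and above MtP at BMD5 in numbers 2 and 3, while the library numbered 1 was the lowest of its group in each of them. In the test over all libraries 0 of 18543 genes (0%) passed in each of these 4 comparisons, with 709 (3.82%) at an unadjusted p under 0.05 against MtP at BMD5, 327 (1.76%) against PrP at BMD5, 169 (0.911%) against EtP at BMD5/10 and 153 (0.825%) against EtP at BMD5/50. In numbers 2 and 3, 63 genes (0.34%) differed between EtP and MtP at BMD5, 61 of them higher with EtP (0.329%), and 0 in the other 3 comparisons, with 1432 (7.72%), 400 (2.16%) and 279 (1.5%) at an unadjusted p under 0.05 against PrP at BMD5, EtP at BMD5/10 and EtP at BMD5/50.

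For single genes, fabp10a had 46.9, 368 and 307 CPM in EtP at BMD5, against 23.9, 82.8 and 105 CPM in MtP at BMD5. In numbers 2 and 3 this was a difference of 1.84 ± 0.30 (edgeR adjusted p = 0.0237). PrP at BMD5 had 15.9, 184 and 252 CPM, and EtP differed from it by 0.63 ± 0.30 (adjusted p = 0.646), a difference that did not pass. EtP at BMD5/10 had 27.3, 472 and 346 CPM and EtP at BMD5/50 34.9, 338 and 383 CPM, so the level of fabp10a was not ordered by label. The neurofilament gene nefma had 28.1, 30.7 and 31.0 CPM in EtP at BMD5, 28.6, 37.08 and 40.3 CPM at BMD5/10 and 24.7, 32.3 and 46.6 CPM at BMD5/50, against 13.8, 18.4 and 23.8 CPM in MtP and 23.4, 24.4 and 33.4 CPM in PrP at BMD5. Values of mpz were 25.8, 21.6 and 27.7 CPM in EtP at BMD5, 15.5, 16.3 and 18.3 CPM in MtP and 17.5, 17.6 and 27.8 CPM in PrP. The comparisons share the EtP libraries.

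**Figure D5:**
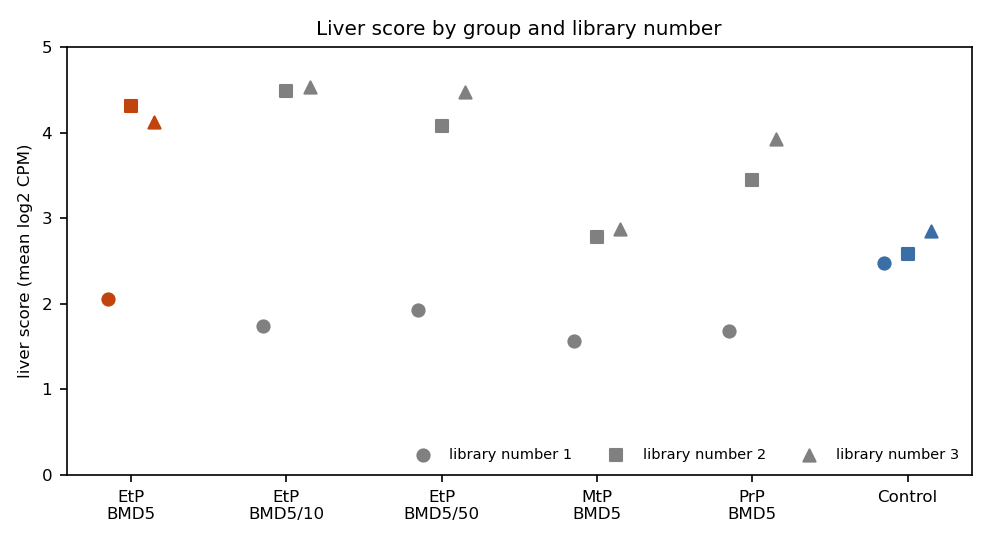
Liver score (vertical axis, mean log2 CPM of 121 genes) of each library of EtP at 3 labels, MtP and PrP at BMD5 and Control. Circles are libraries numbered 1, squares number 2 and triangles number 3; the libraries numbered 1 lie at 1.57 to 2.48 in every group shown, and numbers 2 and 3 of EtP at 4.08 to 4.53.

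The authors' deposited table gives this comparison per transcript and not per gene. Of its 59876 transcripts, 574 (0.959%) reached a p-value under 0.05 and a difference of 1 or more log2 units in the authors' deposited table, 376 higher with EtP and 198 lower, from 547 genes. Of these transcripts 205 had under 60 reads in the 6 libraries together, and for 68 the gene as a whole had an unadjusted p under 0.05 here. The liver lists held 54 of the authors' calls. How many of the 59876 transcripts belong to these lists was not counted, so the 54 cannot be set against the 0.959%. A q-value under 0.05 was given in the authors' deposited table to 32 transcripts, 16 of them higher. None of the 32 came from a gene of the liver lists, in 19 of them every library of 1 group had 0 reads, and for all 32 the summed gene differed by under 1 log2 unit (at most 0.67), with 0 at an unadjusted p under 0.05. In the fit of single transcripts made here, 0 of 26501 (0%) passed, with 657 (2.48%) at an unadjusted p under 0.05.

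Of the transcripts with the smallest p in the authors' deposited table, 2 are given here, chosen after their values were seen. A transcript of the chromatin remodelling gene arid1b (ENSDART00000164274) had 133, 189 and 273 reads in EtP libraries 1, 2 and 3, against 4, 0 and 0 in Control, while the gene had 49.3, 38.2 and 31.5 CPM with EtP and 45.9, 40.7 and 41.9 CPM in Control. The transcript was at 0 reads in 8 of the 24 libraries of other groups. A transcript of sdha, a subunit of succinate dehydrogenase (ENSDART00000133127), had 0, 0 and 0 reads with EtP, against 209, 88 and 171 in Control, and was at 0 in 14 of the 24 other libraries. The summed gene had 122, 218 and 154 CPM with EtP and 212, 149.8 and 167 CPM in Control. Reads of overlapping isoforms are divided by the counting software, which the sources used here do not name, and how far this division moves the transcript values was not tested.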

How the data were processed

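Whole larvae were measured by RNA-seq, and the deposited table of 59876 transcripts holds, per the file headers, read counts and TPM (scaled by the authors to transcript length and library size) for each of 30 libraries. It also holds the log2 fold change, p-value and q-value of the authors' own comparison of EtP at BMD5 with Control, per the file headers. The aligner, counter, annotation and build were not given in the sources used here. Counts were summed here over transcripts with the same gene symbol, from 32520 gene IDs (29201 found in a table of gene names) to 31846 symbols, of which 533 joined several IDs. Library totals were 9711814 to 16044756 reads in the 6 libraries. No pair of libraries was identical.

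Genes were filtered with filterByExpr (minimum count 10), scaled by TMM and tested by the quasi-likelihood method of edgeR 4.0.16 (with limma 3.58.1 under R 4.3.3) in 1 fit of all 30 libraries with 10 group means. A second fit gave the libraries numbered 1 their own mean in each group and tested the difference between numbers. Log2 CPM used a prior count of 2. DESeq2 1.42.0, RLE scaling, no filter, the 6 libraries alone, a replicate block, single transcripts and leaving out libraries were alternatives. Code was tested on simulated data, and figures drawn with matplotlib 3.10.9 in Python 3.11.15 (pandas 2.3.3).

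The members and lists were chosen with earlier results of these data known. Named genes were sentinels, up to 4 members per list with the smallest p, the 10 higher and 10 lower with the smallest p over all genes but those with clone or accession names, up to 15 called higher and 15 lower in numbers 2 and 3, and up to 10 on each side with the widest gap. Others, the transcripts of the authors' deposited table included, are said to be chosen after their values were seen. For single values the smallest p of an exact permutation of 3 and 3 libraries is 0.1, so none is given.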

Additional observations from a re-analysis of the deposited data

Results flagged for a closer look

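The effect of EtP against Control differed between the libraries numbered 1 and those numbered 2 and 3 for 8 of 18543 genes (0.0431%) at an adjusted p under 0.05 (edgeR interaction test), all with the lower effect in number 1. At an unadjusted p under 0.05 there were 2090 genes (11.3%), these 8 included, among them 75 of the 121 liver genes. Number 1 is 1 library against 1, assumed to vary like the pairs of libraries numbered 2 and 3. The differences are log2 effects in number 1 minus those in numbers 2 and 3, and Control library 1 held the highest level of the 6 libraries in 6 of the 8 genes, tat and prelid3b being the exceptions.

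The difference was -2.55 ± 0.24 (SE; adjusted p = 1.87e-04) for ccn1, a secreted matrix protein gene (ENSDARG00000023062, chromosome 23, 45456490 to 45465320), which had 7.32, 16.3 and 18.2 CPM with EtP, against 32.1, 12.1 and 13.6 CPM in Control in libraries 1, 2 and 3. It was -1.61 ± 0.22 (adjusted p = 0.0181) for lonrf1l, at 102, 156 and 136 CPM with EtP, against 257, 113 and 128 CPM in Control, and -2.83 ± 0.41 (adjusted p = 0.0181) for stard14, at 3.1, 11.1 and 11.8 CPM with EtP, against 15.2, 8.01 and 7.77 CPM in Control. For the unnamed si:ch211-161h7.5 it was -5.17 ± 0.75 (adjusted p = 0.0181), at 3.75, 47.9 and 37.7 CPM with EtP, against 74.9, 18.5 and 28.9 CPM in Control. For prelid3b it was -1.24 ± 0.18 (adjusted p = 0.0206), at 76.9, 138 and 143 CPM with EtP, against 140.2, 96.3 and 121 CPM in Control. For tyrosine aminotransferase, tat, it was -2.75 ± 0.43 (adjusted p = 0.0274). Among the stress genes it was -1.31 ± 0.21 for dusp1 (adjusted p = 0.0405) and -1.71 ± 0.28 for cebpb (adjusted p = 0.0416), which had 15.02, 16.0 and 19.1 CPM with EtP, against 44.8, 14.8 and 17.1 CPM in Control. What sets Control library 1 or EtP library 1 apart was not tested.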

How the results depend on the processing

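The count of genes called over all libraries was 0 under every alternative that kept libraries of each number in 1 mean, DESeq2, RLE scaling and leaving out any 1 library included. It was 68 with the libraries numbered 1 left out and 63 with a separate mean for them, and all 63 were among the 68. The 247 genes higher at an unadjusted p under 0.05 became 672 with the replicate block, 1213 with number 1 left out and 1307 with its separate mean. They ranged over 169 to 458 when 1 library was left out, with 458 without EtP library 1. The 133 lower genes became 200 without the filter, 449 with the block, 1082 with number 1 left out, 958 with its separate mean and 299 as single transcripts. They ranged over 78 to 295 when 1 library was left out, with 295 without EtP library 1 and 78 without EtP library 3. Why these counts moved was not tested.

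Among list medians, that of neurons was -0.067 with number 1 left out and -0.140 to 0.079 with 1 library left out, and that of glia and myelin 0.027 and 0.054 to 0.095. Of 546 list medians under alternatives 43, in 19 lists, had the other sign. With 1 library left out the median stayed at 1.17 to 2.25 for liver carriers, 0.95 to 1.86 for apolipoproteins, 0.90 to 1.45 for complement, 1.34 to 2.3 for coagulation and -0.34 to -0.11 for ribosomal proteins. The highest of the 4 liver values came without EtP library 1, and the lowest of the ribosomal ones without Control library 1. The block gave 1.27 for liver carriers and 0.93 for apolipoproteins. The replicate numbers were not taken to pair the libraries. The labels do not say what a number marks, and deviations of same-numbered libraries correlated at 0.293, -0.0698 and 0.261 for numbers 1, 2 and 3, so not every pair was over 0.1. EtP libraries 1 and 3 correlated best with the Control library of their number and EtP library 2 with Control library 3, and the libraries numbered 1 stand apart in every group.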
